A study of Mus musculus with 24 samples.

Results

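The 10 genes described here encode proteins that hepatocytes secrete into blood plasma, namely Alb, Gc, Ahsg, Hp, Hpx, Fga, Fgb, Fgg, Vtn and Serpina3k. They were taken by symbol, and all 10 were found in each of 3 expression tables, which list 31053, 25876 and 20729 genes. The libraries came from liver cells of wild-type adult BALB/c mice and from organoids, which are cultures of these cells embedded in Matrigel. The hepatocyte table holds primary hepatocytes (Pri-Hep), isolated on a Percoll gradient with removal of EpCAM-positive cells, and hepatocyte organoids (Hep-Orgs) at passages 1, 5 and 10 (P1, P5 and P10), with 3 libraries per group. These Hep-Orgs were grown in hepatocyte medium with DAPT, a Notch pathway inhibitor, and dexamethasone, a glucocorticoid. The cholangiocyte table holds cholangiocyte organoids (Cho-Orgs) grown from EpCAM-positive cells, at P0, P5 and P10, with 3 libraries per group. The Smart-Seq table holds 1 library each of Hep-Orgs at P0 that were picked for a grape-like, intermediate or round-like shape, from the medium without DAPT and dexamethasone. The study describes its replicates in one place as mice and in another as cultures, so that p-values measure only the spread between these libraries.

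Plasma proteins are the main secreted product of the hepatocyte, and albumin mRNA is among its most abundant transcripts. Their genes are activated by a shared set of liver transcription factors, including the HNF1, HNF4, FOXA and C/EBP families. Bile duct cells (cholangiocytes) descend from the same fetal progenitor but do not normally make these proteins. Several of the 10 genes, among them the fibrinogen chains and haptoglobin, are acute phase genes that respond to interleukin 6 and glucocorticoids.

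Values are FPKM, that is, fragments per kilobase of gene and per 1000000 fragments of the library. Each table was scaled on its own by the authors. Between 14044889 and 27245269 fragments per library underlie the hepatocyte table. The steps between low values gave an estimated 37467033 to 39926559 fragments per library for the cholangiocyte table and 40035191 to 40375958 for the Smart-Seq table. In bulk libraries, fewer cells that express a gene and less RNA per cell cannot be told apart. The markers of the libraries labelled Pri-Hep went against that label, which bears on every comparison with them. Epcam, the surface protein used to deplete bile duct cells, had 269 FPKM in Pri-Hep, and the duct keratin Krt19 had 237 FPKM. The duct secreted protein Spp1 had 3144 FPKM in Pri-Hep, against 112 FPKM for Alb. The summed level of 10 cholangiocyte markers was 4094 to 4182 FPKM in Pri-Hep and 4041 to 4258 FPKM in the Hep-Orgs of that table. In these 12 libraries, Spearman correlations within groups (0.995 to 0.997) covered nearly the same range as those between groups (0.995 to 0.997). Within groups, pairs of libraries differed by a median of 2.29 times the variance of fragment sampling, with a range of 1.97 to 3.29. Pairs between groups had a median of 2.63 and a range of 1.84 to 4.88.

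Alb and Gc belong to the albumin gene cluster on chromosome 5 but do not adjoin. They lie at chr5:90460897-90476602 on the plus strand and chr5:89417522-89457898 on the minus strand of GRCm38. The fibrinogen chains lie side by side on chromosome 3, with Fgg at chr3:83007724-83015049 (plus strand), Fga at chr3:83026076-83033627 (plus strand) and Fgb at chr3:83040141-83049863 (minus strand). RefSeq promoters of the same build, from 250 bases before to 50 bases after the start site, were found for 8 of the 10 genes. The exceptions were Hp and Serpina3k. The promoters below are those of Alb, the highest of the set in Cho-Orgs P0, of Gc, the single member that rose after P5, and of the 3 fibrinogen chains, whose ratios are compared. They are written 5′ to 3′ in the direction of the gene, from chr5:90460620-90460919, chr5:89457849-89458148, chr3:83025903-83026202, chr3:83049814-83050113 and chr3:83007474-83007773 respectively. Capitals mark the HNF1 core motif GTTAAT, the C/EBP motif TTGCNNAA and the interleukin 6 response motif CTGGGAA, each searched on both strands.
Alb: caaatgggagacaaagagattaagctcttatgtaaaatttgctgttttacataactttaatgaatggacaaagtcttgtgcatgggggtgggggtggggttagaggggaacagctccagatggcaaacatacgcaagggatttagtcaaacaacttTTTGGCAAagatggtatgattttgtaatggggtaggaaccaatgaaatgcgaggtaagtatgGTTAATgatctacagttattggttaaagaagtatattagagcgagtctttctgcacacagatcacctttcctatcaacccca
Gc: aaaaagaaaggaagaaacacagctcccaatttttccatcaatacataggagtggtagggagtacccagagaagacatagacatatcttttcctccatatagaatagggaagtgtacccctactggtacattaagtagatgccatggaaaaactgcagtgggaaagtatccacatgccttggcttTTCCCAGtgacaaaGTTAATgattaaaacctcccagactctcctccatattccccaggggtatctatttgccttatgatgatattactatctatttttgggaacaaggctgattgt
Fga: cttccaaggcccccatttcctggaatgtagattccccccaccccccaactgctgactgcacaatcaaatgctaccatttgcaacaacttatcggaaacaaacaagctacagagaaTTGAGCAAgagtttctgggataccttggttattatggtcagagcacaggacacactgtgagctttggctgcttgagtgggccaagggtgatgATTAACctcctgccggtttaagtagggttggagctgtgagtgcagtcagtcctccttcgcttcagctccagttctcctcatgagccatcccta
Fgb: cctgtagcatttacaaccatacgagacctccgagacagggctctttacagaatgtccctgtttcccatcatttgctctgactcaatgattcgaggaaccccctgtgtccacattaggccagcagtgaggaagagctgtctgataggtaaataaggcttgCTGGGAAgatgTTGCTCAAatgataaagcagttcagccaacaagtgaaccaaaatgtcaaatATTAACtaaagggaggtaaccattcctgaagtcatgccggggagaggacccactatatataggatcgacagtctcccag
Fgg: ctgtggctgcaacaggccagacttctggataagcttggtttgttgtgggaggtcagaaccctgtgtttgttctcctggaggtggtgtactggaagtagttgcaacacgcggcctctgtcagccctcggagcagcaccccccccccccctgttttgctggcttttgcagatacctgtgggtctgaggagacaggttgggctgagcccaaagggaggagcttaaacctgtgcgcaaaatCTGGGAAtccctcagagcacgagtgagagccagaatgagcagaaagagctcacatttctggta
GTTAAT or its reverse stood in 5 of the 8 promoters (Alb, Fga, Fgb, Gc and Vtn), against 7.10% of 32851 promoters of this length. It began 32 bases upstream of the start in Alb, 43 in Fga, 29 in Fgb and 52 in Gc. These starts are those of RefSeq, and for Alb and Fga they differ from the gene starts given above. TTGCNNAA was found in Ahsg, Alb, Fga, Fgb and Hpx, and 10.8% of all promoters hold it. CTGGGAA was found in Fgb, Fgg, Gc and Vtn, against 11.1% of all promoters. CAAAGTC, a part of the HNF4 motif, was found in Ahsg, Alb, Hpx and Vtn, against 4.44% of all promoters. TGTTTGC, one spelling of the FOXA motif, was found in Ahsg and Alb (5.07% of all promoters), while the other, TGTTTAC, was in none of the 8 (3.65%). TATAAA, the core of the TATA box, was found in Vtn alone (13.6%). These matches are letters in a window, and binding was not measured.

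The Cho-Orgs were compared between passages to follow the expression of these genes in cells selected as cholangiocytes. Of the 9 genes that could be tested, all fell from P0 to P5, and all but Gc fell again from P5 to P10. The remaining gene, Serpina3k, was low at P0 and at 0 in every later library. The 10 genes took 2.04% to 2.11% of the summed FPKM at P0, 0.0301% to 0.0453% at P5 and 0.00382% to 0.00423% at P10. Of the 10, 9 reached 1 FPKM in at least 3 libraries and were tested with limma on log2(FPKM + 1), with Benjamini-Hochberg adjustment over all 11593 genes tested. All 9 were lower at P5 than at P0, where 22.6% of all genes tested were called lower. With median-ratio scaling, which moved the share of higher calls over all genes from 60.04% to 47.1%, 29.9% of genes were called lower and the same 9 were still lower. From P5 to P10, 8 of the 9 fell further (30.5% of all genes tested were called lower) and Gc rose (31.0% were called higher). All 9 were lower at P10 than at P0, against 31.3% of all genes tested. The median log2 fold change of the 9 was -5.43 for P5 against P0, -2.83 for P10 against P5 and -8.30 for P10 against P0, while the medians over all genes tested were 0.06, 0.01 and 0.07. On this scale the pseudocount shrinks the changes of genes below 1 FPKM. As log2 ratios of the group means, with genes at 0 set to their bounds, the medians were -5.76 over 10 genes, -4.64 over the 9 with a value and -9.55 over 10. Hpx and Vtn passed the filter mainly through the P0 libraries, as 1 and 2 of their P5 libraries reached 1 FPKM and none of their P10 libraries did, so that the filter favoured a decline in these genes. Alb, Ahsg, Hp and Fgg passed it through the P0 and P5 libraries alone. Their highest P10 values were 0.647, 0.0177, 0.312 and 0.493 FPKM, so that the filter favoured a decline to P10 in these genes too. The libraries of the 9 genes did not overlap between any 2 passages. Over all genes tested, 61.5% did not overlap between P0 and P5, 74.2% between P5 and P10, and 75.1% between P0 and P10.

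**Figure D1:**
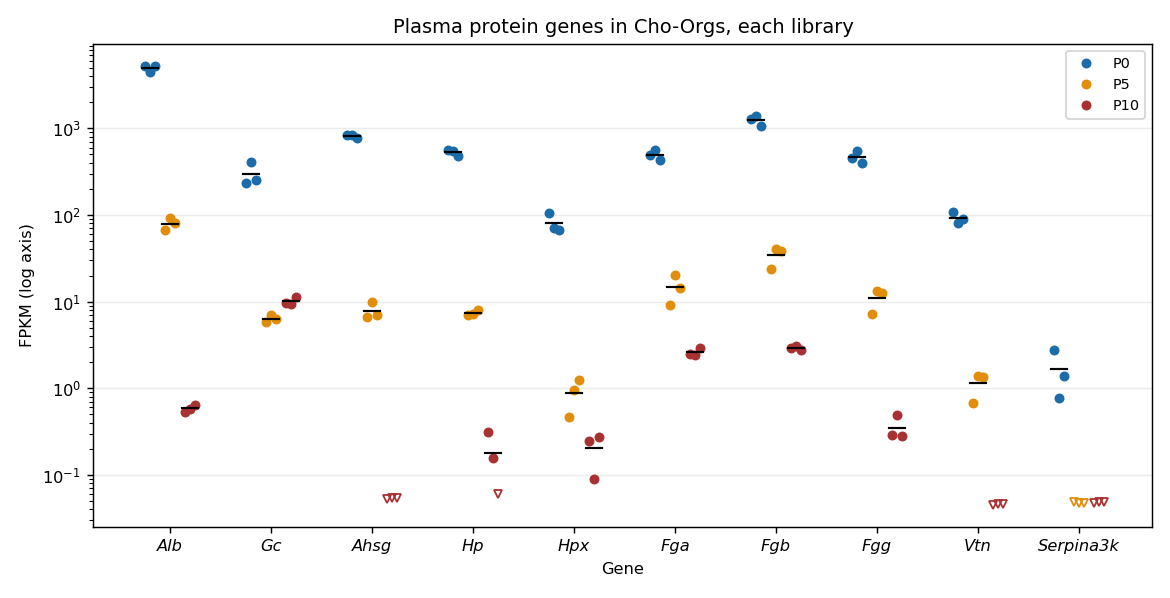
FPKM of the 10 genes in each Cho-Orgs library, on a log axis. Points are libraries, black bars are group means, and open triangles stand at the level of 3 fragments for libraries with 3 fragments or fewer; Alb runs from a mean of 4994 FPKM at P0 to 0.584 FPKM at P10, and Gc at P10 lies above Gc at P5.

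Alb encodes albumin, the carrier that sets the colloid pressure of plasma. Its FPKM was 5202, 4526 and 5254 in the P0 libraries, 66.5, 91.3 and 80.7 at P5, and 0.534, 0.569 and 0.647 at P10. The groups stood far apart and did not overlap. Alb ranked 6 to 9 among the genes of each P0 library, 693 to 970 at P5 and 11250 to 11512 at P10, where it rested on 42, 44 and 50 fragments per library. Its log2 fold change was -5.96 (SE 0.10, adjusted p = 3.55e-10) for P5 against P0 and -5.66 (SE 0.10, adjusted p = 1.25e-09) for P10 against P5. The ratio of the group means was 62.8-fold for the first step and 136-fold for the second, so that the P10 level was 8555-fold below P0. On the log2(FPKM + 1) scale the second step is understated, as the P10 values lie below the pseudocount.

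Gc encodes the vitamin D binding protein, a relative of albumin from the same cluster. Its FPKM was 234, 409 and 256 at P0, 5.77, 7.04 and 6.31 at P5, and 9.65, 9.42 and 11.3 at P10. The P5 libraries were the lowest of the 9 and the P10 libraries stood above all of them. For P5 against P0 the log2 fold change of Gc was -5.31 (SE 0.18, adjusted p = 2.35e-08), and for P10 against P5 it was 0.59 (SE 0.18, adjusted p = 0.0160). The rise corresponds to 1319 fragments summed over the P5 libraries and 2071 over the P10 libraries. It missed the threshold without Cho-Orgs P5 replicate 1 (log2 fold change 0.53, adjusted p = 0.0570), without Cho-Orgs P10 replicate 3 (0.52, adjusted p = 0.0606) and with every gene above 0 tested (0.59, adjusted p = 0.0517). At P10 Gc was the highest of the 10 genes, whereas it was the 7th at P0, behind Alb, Fgb, Ahsg, Hp, Fga and Fgg. Afp, a further member of the albumin cluster and the main plasma protein of the fetal liver, fell at both steps (log2 fold changes -5.50 and -2.78), from a mean of 652 FPKM at P0 to 13.4 and 1.09 FPKM. Afm, also of the cluster, fell from 8.42 to 0.0604 FPKM by P5 and had 0.0614 FPKM at P10 (P10 against P5, adjusted p = 0.994).

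Ahsg encodes fetuin-A, an inhibitor of calcification. It had 847, 830 and 768 FPKM at P0, 6.63, 10.03 and 7.03 FPKM at P5, and 0.0177, 0 and 0 FPKM at P10. The P10 values rest on a single fragment in replicate 1. Ahsg had the most negative log2 fold change of all genes tested between P0 and P5, at -6.54 (SE 0.12, adjusted p = 3.71e-10), or 103-fold between the means. From P5 to P10 the ratio was 1319 with a 95% exact Poisson interval of 237 to 52114, which covers counting error only. The fitted log2 fold change for that step was -3.12 (SE 0.12, adjusted p = 7.41e-08).

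Hp, which encodes haptoglobin, binds free haemoglobin, and Hpx, which encodes hemopexin, binds free haem. Hp had a mean of 531 ± 47.7 FPKM (SD, n = 3) at P0 and fell 72.1-fold to P5 and a further 41.7-fold to P10, where its libraries held 16, 8 and 3 fragments. Without Cho-Orgs P10 replicate 1, the second decline of Hp was 67.5-fold. Hpx had 81.0 ± 21.2 FPKM (SD, n = 3) at P0 and fell 91.5-fold to P5. From P5 to P10 Hpx fell from 0.465, 0.957 and 1.23 FPKM to 0.248, 0.0901 and 0.271 FPKM, the smallest decline of the 8 genes that fell at this step. Its log2 fold change was -0.63 (SE 0.19, adjusted p = 0.0150). This call was lost without Cho-Orgs P5 replicate 2 (adjusted p = 0.0501), without Cho-Orgs P5 replicate 3 (0.0611) and without Cho-Orgs P10 replicate 2 (0.0547). With every library included and a pseudocount of 0.1, Hpx fell by 1.67 on the log2 scale.

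Vtn encodes vitronectin, an adhesion protein of plasma and extracellular matrix. It had 109, 80.1 and 91.1 FPKM at P0 and 0.683, 1.38 and 1.35 FPKM at P5, and it was at 0 in all 3 P10 libraries. The decline from P0 to P5 was 82.0-fold (log2 fold change -5.47, SE 0.14, adjusted p = 5.63e-09). Against a floor of 3 fragments per library, Vtn at P10 was at least 24.9-fold lower than at P5 and at least 2044-fold lower than at P0. Plaur, the urokinase receptor, which binds vitronectin, rose from 36.7 to 98.2 and 183 FPKM (log2 fold change of P10 against P0 2.30, SE 0.08, adjusted p = 1.41e-08).

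Serpina3k, a serine protease inhibitor of the antichymotrypsin family, was low from the start and was not tested, since only 2 libraries reached 1 FPKM. It had 2.79, 0.773 and 1.40 FPKM at P0, which correspond to 184, 51 and 90 fragments, and it was at 0 in all 6 later libraries. It was therefore at least 34.7-fold lower at P5 and at least 34.3-fold lower at P10 than at P0, while no fold can be given between P5 and P10. Without Cho-Orgs P0 replicate 1, the bounds were 22.7-fold and 22.5-fold. Serpina3k lies in a cluster of near-identical copies, between which reads can be divided, so its level is uncertain. Serpina3n and Serpina3m, nearby copies, had 34.6 and 3.57 FPKM at P0, and both fell to P5 (log2 fold changes -5.08 and -2.16). At P10 both were listed at 0 in each library.

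**Figure D2:**
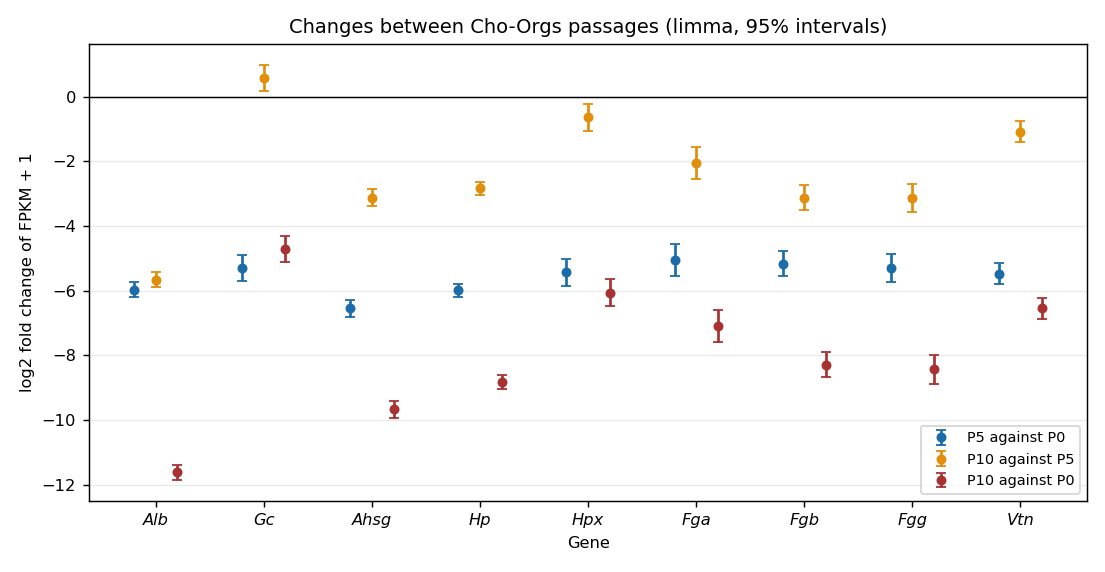
Log2 fold change of FPKM + 1 between Cho-Orgs passages for the 9 genes tested, with 95% intervals from limma. The changes for P5 against P0 lie between -6.54 (Ahsg) and -5.04 (Fga), while those for P10 against P5 spread from -5.66 (Alb) to 0.59 (Gc), which lies above the zero line.

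Fga, Fgb and Fgg encode the alpha, beta and gamma chains of fibrinogen, the clotting precursor, which is assembled from equal numbers of each chain. In Cho-Orgs, Fgb had the highest level per kilobase at P0 with 1290, 1377 and 1052 FPKM. Fga had 497, 558 and 428 FPKM and Fgg had 456, 549 and 400 FPKM. Within each library the order of the 3 chains was the same. At P5, Fgb had 23.95, 40.1 and 38.3 FPKM, Fga had 9.13, 20.2 and 14.5 FPKM, and Fgg had 7.27, 13.4 and 12.7 FPKM. At P10, Fgb had 2.88, 3.11 and 2.79 FPKM and Fga had 2.49, 2.45 and 2.91 FPKM, while Fgg was lower with 0.286, 0.493 and 0.278 FPKM. The means fell to P5 by 33.8-fold for Fga, 36.3-fold for Fgb and 42.1-fold for Fgg, and from P5 to P10 by 5.59-fold, 11.7-fold and 31.6-fold. Each of these changes passed the adjusted threshold, with log2 fold changes of -5.04, -5.17 and -5.30 for the first step and -2.05, -3.13 and -3.13 for the second.

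The ratio of Fga to Fgg, which does not depend on how a library was scaled, averaged 1.06 ± 0.0388 in the P0 libraries (SD, n = 3 in each group). It averaged 1.30 ± 0.185 in the P5 libraries and 8.06 ± 2.82 in the P10 libraries. That of Fgb to Fgg was 2.66 ± 0.163, 3.10 ± 0.169 and 8.80 ± 2.15. Both ratios were higher in each P5 library than in any P0 library, and higher again at P10. Between P0 and P5 the mean log2 ratio differed by 0.29 for Fga to Fgg and by 0.22 for Fgb to Fgg, each with an exact two-sided permutation p = 0.1, the smallest that 3 against 3 libraries allow, and an adjusted p of 0.15 over 3 pairs. The ratio of Fga to Fgb differed by 0.07 (exact permutation p = 1, adjusted p = 1). Without Cho-Orgs P5 replicate 2 this difference was -0.07, so that its direction rests on 1 library. The P10 ratios rest on 22 to 39 fragments of Fgg per library and were not tested.

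**Figure D3:**
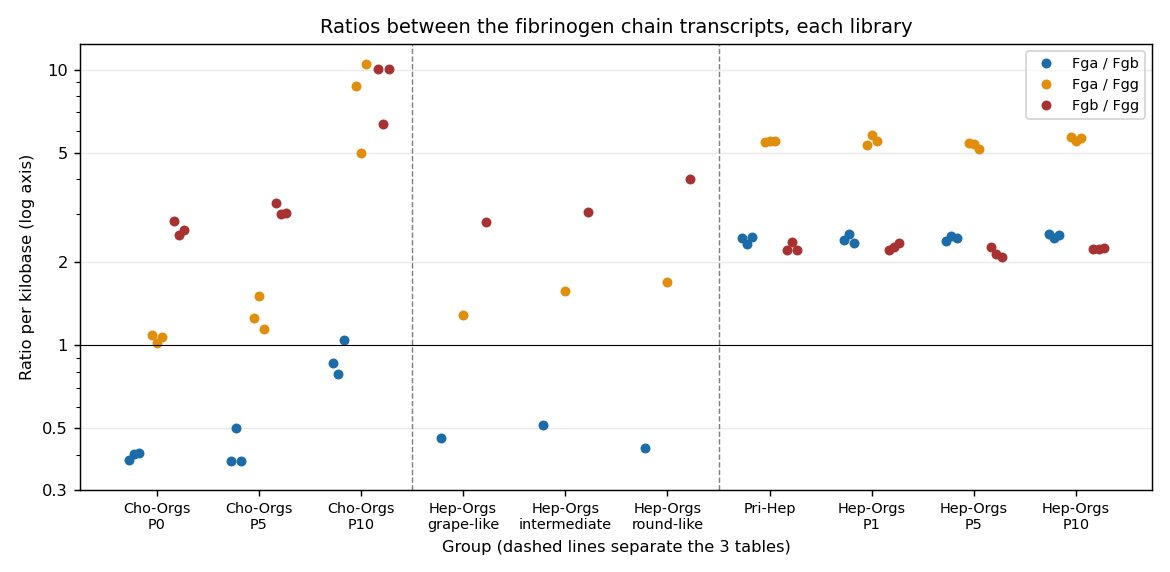
Ratios between the 3 fibrinogen chain transcripts per kilobase of gene in each library of all groups, on a log axis, with the gene lengths of the cholangiocyte table used throughout. In Cho-Orgs P0 and P5 and in the Smart-Seq libraries Fga lies below Fgb (0.379 to 0.515), whereas in the 12 libraries of the hepatocyte table it lies above Fgb (2.32 to 2.54).

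Other genes of the hepatocyte programme were read from fixed lists. Of 52 other plasma protein genes, 45 were tested. All 45 were lower at P5 than at P0, with a median log2 fold change of -3.45, against 22.6% of all genes tested. A gene could pass the filter through the P0 libraries alone, which favoured a decline in such genes. Of the listed genes, 6 were at 0 in every P5 library and 17 in every P10 library. At P10, all 45 were lower than at P0 (median -3.84), against 31.3% of all genes tested. From P5 to P10 only 15 fell and 3 rose, with a median of -0.11, where 30.5% of all genes tested fell and 31.0% rose. The steepest declines to P10 were those of the lipid carrier Apoe (-7.54), the protease inhibitor Pzp (-6.97) and Itih4 (-6.94). The complement protein C3, the highest of the list at P0 with 1221 FPKM, still had 33.4 FPKM at P10. Of 20 hepatocyte enzymes, 12 were tested and all 12 were lower at P10 than at P0, among them the cytochrome gene Cyp3a11 (log2 fold change -6.11). The same limit of the filter applies, as 11 of the 20 were at 0 in every P10 library. Over all genes tested, 31.3% were lower and 41.0% higher at P10 than at P0. Of 18 binding partners and receptors of these proteins, 12 were tested, and 4 were higher and 6 lower at P10 than at P0. Beside Plaur, which rose, Fcgrt, the receptor that rescues albumin from degradation, fell from 5.89 to 0.824 FPKM (log2 fold change -1.84).

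The list of liver transcription factors had a smaller median change. Of 20, 18 were tested, with a median log2 fold change of -0.63 between P0 and P10. Of the 18, 12 fell (31.3% of all genes tested) and 3 rose (41.0%). Hnf4a, a main activator of plasma protein genes, had 64.3 FPKM at P0, 60.9 at P5 and 56.4 at P10, and the difference between P0 and P10 was -0.18 (95% interval -0.39 to 0.04, adjusted p = 0.128). Cebpa fell by 0.89 (SE 0.06, adjusted p = 4.60e-07). The largest declines were those of Prox1 (-3.48), Nr0b2 (-2.77) and Foxa3 (-2.39). Cebpb rose by 0.55 (adjusted p = 0.0129). On this scale Alb fell by 11.62 between P0 and P10, and the part of these factors in the changes of the set was not tested. Across the 9 libraries, genes outside the set whose log2 fold changes lay close to its medians included Afp, with a root-mean-square difference of 0.049, Igfbp1 (0.711), Pzp (0.951) and Orm1 (1.07).

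Markers of other cells also changed between passages, in differing directions, and their part in the changes of the set was not tested. All 10 proliferation markers were lower at P10 than at P0, against 31.3% of all genes tested. They were led by Ccna2 (-4.17), Mki67 (-4.05) and Ccnb1 (-3.89). Their summed level was 237 to 362 FPKM at P0, 123 to 132 at P5 and 16.8 to 18.4 at P10. That of 10 stellate and mesenchymal markers was 64.6 to 79.4 FPKM at P0, of which Reln held a mean of 69.2 and Rgs5 4.16, and 0.174 to 0.270 FPKM at P10. That of 10 macrophage markers was 43.0 to 50.6 FPKM at P0, 72.1 to 77.3 at P5 and 10.1 to 10.5 at P10. Most of it was Cd68, with means of 30.4, 74.5 and 9.53 FPKM, while Lyz2 had 13.2 FPKM at P0 and was listed at 0 in every later library. Clec4f, Timd4 and Vsig4 were at 0 in all Cho-Orgs P0 libraries, and the other 7 markers of this list, such as Ctss (1.64 FPKM) and Adgre1 (0.416 FPKM), were detected in at least 1 of them. Sinusoidal endothelial markers, led by Gpr182, summed to at most 2.13 FPKM and blood lineage markers, led by S100a9, to at most 9.60 FPKM in any Cho-Orgs library. The sum of 10 cholangiocyte markers was 5608 to 6975 FPKM at P0 and 3821 to 3865 FPKM at P10, with 4 markers higher and 4 lower. Among them, Cftr fell by 4.02 and Spp1 fell by 2.78 on the log2 scale, while Krt7 rose by 1.89. Of 8 reference genes, 3 were higher and 4 lower at P10 than at P0, from -1.31 for Gapdh and -0.76 for Ppia to 0.75 for Eef1a1. Beside the counts of cholangiocyte markers and reference genes, 41.0% of all genes tested were higher and 31.3% lower.

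In the hepatocyte table, the Hep-Orgs were compared with Pri-Hep to follow these genes over culture and passaging. The level of each gene changed little over the 12 libraries. Fga was the highest of the set with 277 to 297 FPKM, followed by Alb with 106 to 128 FPKM, Fgg with 45.1 to 50.6 FPKM and Fgb with 44.7 to 48.8 FPKM. Gc had 14.5 to 17.5 FPKM, Hp 10.3 to 13.2 FPKM and Ahsg 9.04 to 11.4 FPKM. Serpina3k (1.25 to 2.27 FPKM), Vtn (0.626 to 1.09 FPKM) and Hpx (0.441 to 0.807 FPKM) were the lowest of the set. The order of the genes was the same in the 4 groups, except that Fgg and Fgb, whose ranges overlapped in each group, changed places. Ranges of Vtn and Hpx overlapped in the 3 Hep-Orgs groups. The 10 genes together took 0.175% to 0.187% of the summed FPKM.

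**Figure D4:**
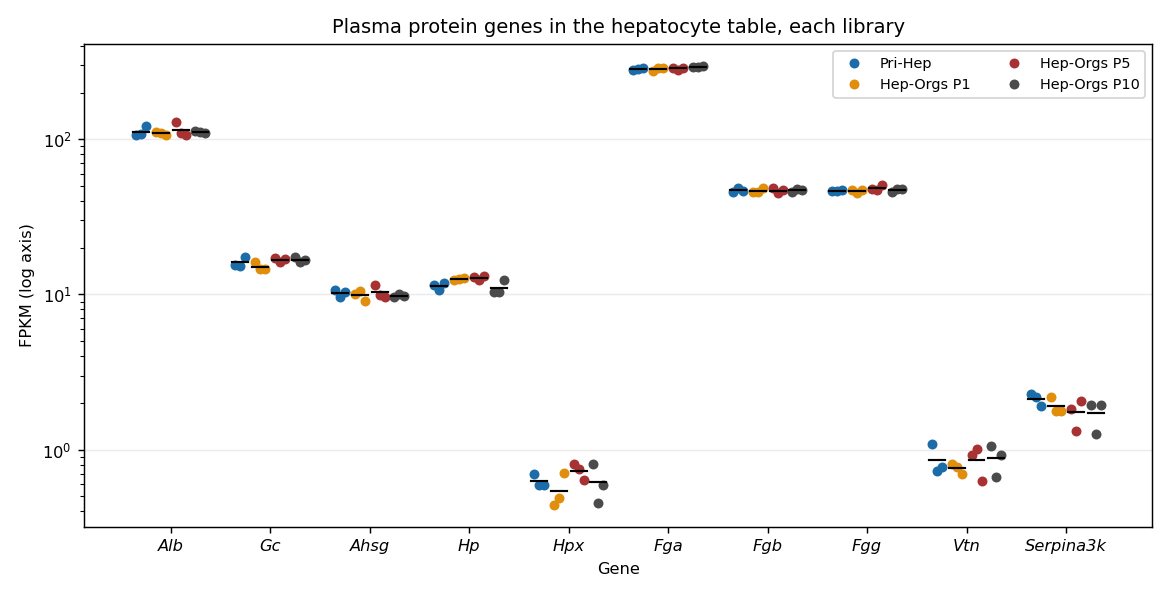
FPKM of the 10 genes in each library of the hepatocyte table, on a log axis. Points are libraries and black bars are group means; for every gene the 12 points lie within a factor of 1.83 of each other, and Fga lies above Alb in each group.

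Of the 10 genes, 9 were tested, Hpx being below 1 FPKM in every library. With limma, 0 of the 9 passed the adjusted threshold in any of 7 comparisons. Among the 10986 genes tested, 0.00910% were called for P1 against Pri-Hep and again for P5 against Pri-Hep. The share was 0.0273% for P10 against P5, and 0% for P10 against Pri-Hep, for all Hep-Orgs together against Pri-Hep, for P5 against P1 and for P10 against P1. At an unadjusted p under 0.05, 1 gene of the set was counted for P1 against Pri-Hep (8.29% of all genes tested) and 1 for P5 against Pri-Hep (10.8%). There was none for P10 against Pri-Hep (6.64%) or for all Hep-Orgs against Pri-Hep (8.79%). There were 2 for P5 against P1 (3.97%), 2 for P10 against P1 (8.98%) and 1 for P10 against P5 (11.5%). A limma-voom fit of the recovered fragments also called 0 of the set in each of the 7 comparisons.

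Other lists were read in this table as well. Of the 52 other plasma protein genes, 21 were tested. In each of the 7 comparisons 0 of them were called, against at most 0.0273% of all genes tested. At an unadjusted limma p under 0.05, 5 were counted for P5 against Pri-Hep (10.8% of all genes tested). There were 4 for all Hep-Orgs against Pri-Hep (8.79%) and 4 for P10 against P5 (11.5%). There were 2 for P1 against Pri-Hep (8.29%) and 2 for P10 against Pri-Hep (6.64%). P10 against P1 had 1 (8.98%) and P5 against P1 had 0 (3.97%). C3 was the highest of the list with 1476 FPKM in Pri-Hep. Macrophage markers summed to at most 9.86 FPKM and stellate and mesenchymal markers to at most 7.10 FPKM in any of the 12 libraries.

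The 95% intervals of the fold changes are on the log2(FPKM + 1) scale, which understates the change that they allow for low genes such as Vtn and Serpina3k. For all Hep-Orgs against Pri-Hep, the log2 fold changes of the 9 genes lay between -0.18 (Serpina3k) and 0.08, and their intervals reached from -0.38 to 0.19. Alb had 106, 108 and 121 FPKM in Pri-Hep, 111, 109 and 107 at P1, 128, 109 and 107 at P5, and 113, 112 and 110 at P10. All 4 groups overlapped, and the single highest value was that of P5 replicate 1. Fga had 281, 283 and 288 FPKM in Pri-Hep, 277, 289 and 287 at P1, 288, 280 and 289 at P5, and 290, 292 and 297 at P10. The P10 libraries were above all others, yet the log2 fold change against P5 was 0.04 (SE 0.02, adjusted p = 0.566). Hp had the lowest p of the set, for P10 against P5, with 12.9, 12.4 and 13.2 FPKM at P5 and 10.4, 10.3 and 12.4 FPKM at P10. The lower range at P10 gave a log2 fold change of -0.20 (SE 0.06) and an adjusted p of 0.248.

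The spread over the 12 libraries can be set beside the counting error, since the fragments behind each value are known. Fga varied by 1.94% (coefficient of variation), with 12280 to 22720 fragments per library, where counting alone gives 0.797%. Alb varied by 5.86%, where counting gives 1.45%. Vtn varied by 18.6% with 22 to 45 fragments, close to the 18.1% that counting gives, and Hpx by 20.3% where counting gives 24.5%.

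In the Smart-Seq table, the 3 shapes of Hep-Orgs at P0 were compared without replicates, and no test was made. All 10 genes were highest in the grape-like or the intermediate library, and 9 of them were lowest in the round-like library. Alb had 3649 FPKM in the grape-like, 5729 in the intermediate and 565 in the round-like library. Hp had 782, 2191 and 307 FPKM and Ahsg had 712, 1750 and 122 FPKM in the same order. For these genes the intermediate library stood highest and the round-like library lowest.

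The ratio of grape-like to round-like exceeded 2-fold on the log2(FPKM + 1) scale for each of the 10 genes, against 12.9% of the 12595 genes with at least 1 FPKM in at least 1 library. Serpina3k reached 1 FPKM in the grape-like library alone, so its place among the genes higher there was favoured by this filter. It ranged from 2.40 for Gc (95% exact counting interval 2.35 to 2.46) to 7.62 for Serpina3k (4.35 to 14.4), and was 6.46 for Alb (6.40 to 6.52). The ratio of intermediate to round-like exceeded 2-fold for 9 genes, against 3.85% of all genes, with values from 4.61 for Hpx to 14.7 for Fgg. Grape-like was more than 2-fold below intermediate for 7 genes (7.15% of all genes). It was above intermediate for Serpina3k, which passed the filter through the grape-like library (9.71% of all genes were above). Among the other genes, Alb was 0.637 of its intermediate level in the grape-like library and Hpx was nearly level at 0.955 (0.931 to 0.981). Serpina3k had 106 fragments in the grape-like, 8 in the intermediate and 14 in the round-like library, and its intermediate to round-like ratio of 0.570 had an interval of 0.207 to 1.46. These intervals cover counting error only, and the spread between organoids of one shape is unknown.

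**Figure D5:**
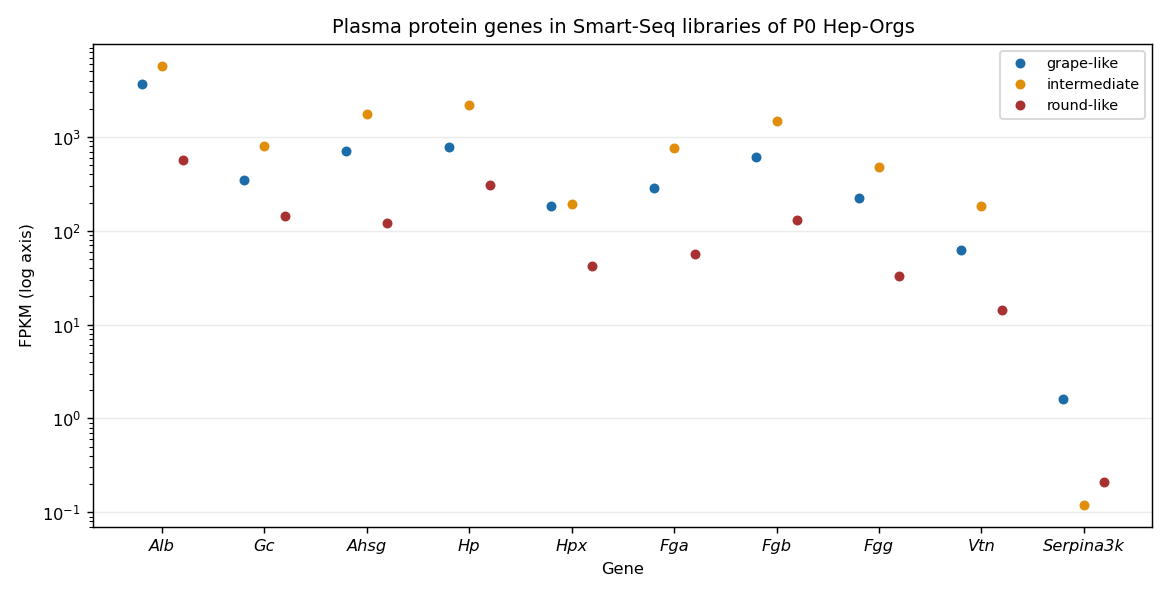
FPKM of the 10 genes in the 3 Smart-Seq libraries, on a log axis, with 1 point per library. For 9 genes the intermediate point is highest and the round-like point lowest, while for Serpina3k the grape-like point, at 1.60 FPKM, is highest.

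Markers of other liver cells differed between the 3 libraries as well, and their part in these ratios was not tested. The sum of 10 macrophage markers was 9147 FPKM in the grape-like, 2677 in the intermediate and 1462 in the round-like library, led by Lyz2 with 5942, 1792 and 887 FPKM. None of these 10 markers was at 0. Stellate and mesenchymal markers summed to 1431, 368 and 315 FPKM, sinusoidal endothelial markers to 216, 115 and 53.6 FPKM and the 7 blood lineage markers that this table lists to 33.0, 12.3 and 5.35 FPKM. The highest of these lists were Dcn (658, 157 and 102 FPKM), Eng (67.0, 22.8 and 14.8 FPKM) and Ptprc (28.9, 7.72 and 5.19 FPKM). The 10 cholangiocyte markers summed to 882, 3510 and 2989 FPKM, and the 10 proliferation markers to 259, 238 and 479 FPKM. Cd163, the macrophage receptor that takes up the complex of haptoglobin and haemoglobin, had 158 FPKM in the grape-like and 15.4 FPKM in the round-like library. Afp had 584, 456 and 76.8 FPKM, so that, unlike Alb, it was highest in the grape-like library. C3 had 980, 2390 and 921 FPKM. Of the copies related to Serpina3k, Serpina3n had 42.8, 23.0 and 7.91 FPKM and Serpina3g 69.5, 25.4 and 32.2 FPKM.

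Across the tables the levels can only be set side by side, since each was scaled on its own and the listed gene lengths differ. Per 1000000 fragments of the library, Alb stood at 10293 ± 838 in Cho-Orgs P0, and at 164 ± 25.6 and 1.203 ± 0.119 in the later passages (SD, n = 3 in each). It stood at 262 ± 18.7 in Pri-Hep, 261 ± 3.54 in Hep-Orgs P10, 7521 in the grape-like, 11808 in the intermediate and 1164 in the round-like library. The level in Pri-Hep thus lay between those of Cho-Orgs P0 and P10 and below each Smart-Seq library. Fga stood at 1666 ± 219 in Cho-Orgs P0, 8.82 ± 0.872 at P10 and 855 ± 10.3 in Pri-Hep. The ratio of Fga to Alb per kilobase was taken with the gene lengths of each table and was not put on common lengths. It was 0.0785 to 0.132 in the Smart-Seq libraries, 0.0814 to 0.123 in Cho-Orgs P0 and 0.137 to 0.221 at P5. In Cho-Orgs P10 (4.29 to 4.66) and in all groups of the hepatocyte table (2.24 to 2.71) Fga exceeded Alb. The Smart-Seq libraries and Cho-Orgs P0 were alike in that Alb led the set and Serpina3k closed it, with 1.71%, 3.18% and 0.346% of the summed FPKM in the set for grape-like, intermediate and round-like.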

How the data were processed

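RNA was sequenced from 24 mouse libraries, 21 bulk poly(A) and 3 Smart-Seq, in groups taken from the submitters' labels. The deposited tables hold FPKM, computed by the authors from read counts. The submitters' processing notes name featureCounts 2.0.3, edgeR 3.40.2 and the build mm10. The aligner and annotation release are not given in the sources used here. Fragments were recovered from FPKM steps (whole within 0.05), with listed gene lengths for the hepatocyte table (100% of values whole) and lengths inferred for the others, whose depth is an estimate.

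Values were compared as log2(FPKM + 1) with limma 3.58.1 (R 4.3.3; lmFit and eBayes with trend, two-sided, all groups of a table in 1 fit), for genes with at least 1 FPKM in at least 3 libraries. P-values were adjusted by Benjamini-Hochberg over all genes tested, at 0.05. The model was also run on simulated fragments that gave every gene the same length and the same relative spread. That run does not measure its error rates in these libraries, whose spread differs between genes. Levels at 0 were bounded by a floor of 3 fragments per library, and intervals are 95%. Ratios, motifs and figures were made with Python 3.11.15 (scipy 1.17.1, pandas 2.3.3, numpy 2.4.6) and matplotlib 3.10.9. Promoters are RefSeq sequences on GRCm38.p6.

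The 10 genes and all lists were chosen with earlier results of these data known. Genes named beside the set are, per list, the called genes with the largest P0 to P10 change in Cho-Orgs (up to 3), the highest expressed, and some fixed genes (Afp, Hnf4a, Cebpa, Serpina3m, Serpina3n), besides the 5 genes closest to the set in their Cho-Orgs changes. Some genes that this rule names are not reported here. Genes named outside this rule (Epcam, Krt19, Clec4f, Timd4, Vsig4, Ctss, Adgre1 and Cd163) were chosen after their values were seen. Alternatives were other pseudocounts, filters, scalings, fits and floors, a replicate block, and leaving out each library. The median correlation of deviations from group means between same-numbered libraries was -0.0063 in Cho-Orgs and -0.0016 in the hepatocyte table. With 3 libraries per group this cannot exclude a shared mouse, and libraries were not paired in the main fit.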

Additional observations from a re-analysis of the deposited data

Results flagged for a closer look

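Fga differed between P5 and P10 without overlap of the libraries in both kinds of organoid, and in opposite directions. In Cho-Orgs the P10 libraries (2.49, 2.45 and 2.91 FPKM) lay below those of P5 (9.13, 20.2 and 14.5 FPKM), with a log2 fold change of -2.05. In Hep-Orgs the P10 libraries (290, 292 and 297 FPKM) lay above those of P5 (288, 280 and 289 FPKM), with a log2 fold change of 0.04 that did not pass the test (adjusted p = 0.566). Between these Hep-Orgs passages 17.1% of all genes tested did not overlap, and between the same Cho-Orgs passages 74.2%. The difference between the 2 changes was not tested, since the tables were scaled separately. Groups of 3 libraries or 1 library are too small for a check of single outlying libraries.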

How the results depend on the processing

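The 9 genes tested remained lower at P5 and at P10 than at P0 in Cho-Orgs under each of 17 alternatives. For P10 against P5, the number of genes called lower was 7 to 8 and the number called higher was 0 to 1 when each library was left out in turn, and 0 were called higher with every gene above 0 tested. With the replicate block, 9, 8 and 9 genes were called lower for P5 against P0, P10 against P5 and P10 against P0, and 0 in the hepatocyte table, so the block changed no call of the set. The study's heatmap legends assign the numbers to mice, while its methods call each replicate an independent culture. Whether same-numbered libraries share a mouse was not decided. Alternative values were taken for each fold change tested in Cho-Orgs. In the hepatocyte table they were taken only for fold changes of the set with an unadjusted limma p under 0.05. Of these values, 600 kept their side of the threshold and 6 did not, which were those of Gc and Hpx given above. Leaving out 1 library, the difference in mean log2 Fga to Fgb ratio between P5 and P0 was -0.0688 to 0.135, that of Fga to Fgg 0.180 to 0.378 and that of Fgb to Fgg 0.179 to 0.271, a check added after the data were seen, as was the same check of the folds between group means, in which those of Hp and Serpina3k given above moved by over 1.5 times (Hp from P0 to P10 4871-fold without Cho-Orgs P10 replicate 1). With floors of 1 and 5 fragments, the bound for Vtn at P10 was 6133-fold and 1227-fold against P0 and 74.8-fold and 15.0-fold against P5, and that for Serpina3k at P5 was 104-fold and 20.8-fold, and at P10 103-fold and 20.6-fold. Over all genes of the hepatocyte table, limma-voom called 30 for P1, 39 for P5, 0 for P10 and 12 for all Hep-Orgs against Pri-Hep, where limma on log2 FPKM called 1, 1, 0 and 0, and 0, 29 and 28 for P5 against P1, P10 against P1 and P10 against P5, where it called 0, 0 and 3. Depth limits Ahsg, Vtn and Serpina3k at P10 in Cho-Orgs to bounds or counting intervals.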
